A study of Mus musculus with 28 samples.

Results

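MC38 is a mouse colon adenocarcinoma line, and the cells described here are its controls, which were transduced with the empty pCRISPR-v2-puro construct and grown in medium with puromycin. They were examined by chromatin immunoprecipitation and sequencing with an antibody against histone H3 trimethylated at lysine 9 (H3K9me3) and another against histone H3 acetylated at the same lysine (H3K9Ac). The 6 libraries titled MC38, CTRL were taken, 3 per mark, out of 28 samples in the series, 24 of which had a file of enriched regions, called islands. The series also held MC38 cells with a Setdb1 guide in the same vector (Setdb1 KO) and the melanoma line B16OVA (B16 here) with either construct, and it asked how both marks lie over loci that join exons to transposable elements. All these cells carried the puromycin vector, including the controls, and nothing in the labels says whether a line was a clone. Chromatin was digested with micrococcal nuclease, from 8000000 cells for H3K9me3 and 2000000 for H3K9Ac per the labels, so cell number and antibody cannot be told apart in any difference between the marks. The 4 input samples were not used here, transposable elements were not analysed here, and nothing in the labels says that the 3 libraries of a mark came from separate cultures, so p-values measure the spread between these libraries.

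Lysine 9 of histone H3 can be acetylated or methylated, but 1 tail cannot carry both on that residue. H3K9Ac is laid down by acetyltransferases recruited to active genes and is found at promoters and enhancers in use. H3K9me3 is written by SETDB1 and the SUV39H enzymes, is bound by HP1 proteins, and marks compact chromatin over repeats, silent gene clusters and the coding ends of zinc finger genes.

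The H3K9me3 libraries held 16919723 to 25468675 reads within islands on chromosomes 1 to 19 and X, and the H3K9Ac libraries 33915109 to 69352069. The files list islands only, so a gene given at 0 is one where none was called, which does not show that the mark was absent. A gene counted as carrying a mark in a library when at least 200 bp of the span from 2 kb before its start to 2 kb after its end lay under islands. Of 22 gut epithelium markers, 11 carried H3K9Ac in all 3 libraries and H3K9me3 in none (H3K9Ac alone, which 52.9% of all protein-coding genes had), among them Epcam, Krt8, Krt18, Vil1 and Cdx2, a transcription factor of intestinal identity. The stem cell receptor gene Lgr5 carried H3K9me3 alone (5.05% of all genes), the epithelial cadherin gene Cdh1 carried both marks (7.42%), and 9 markers had a mark in part of its libraries only, such as Muc2 and Krt20. Mesenchymal markers had 13 of 15 members with H3K9Ac alone, including Vim and Fn1, beside 5 of 12 melanocyte and 4 of 13 leukocyte markers. H3K9Ac covered 17% to 25.3% of the regions of the gut list, 26.3% to 36.6% of the mesenchymal, 11.9% to 15.6% of the melanocyte and 10.3% to 17.4% of the leukocyte list. All protein-coding gene regions had 28.9% to 33.3%, so the mesenchymal list lay around that background and the other 3 lists below it, and the share of gut markers with H3K9Ac alone was near that of all genes. The lists as a whole thus do not set the labelled cell type apart. Islands do not measure expression, and the cell types behind them were not tested.

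The typical island did not differ in length between the marks beyond the spread of the libraries, while long islands were more common under H3K9Ac. The median length was 3400, 3800 and 4400 bp in H3K9me3 replicates 1, 2 and 3 and 4000, 3800 and 3400 bp in the H3K9Ac replicates. The groups overlapped, with means of 3867 ± 503 and 3733 ± 306 bp (SD, n = 3, exact two-sided permutation p = 1). The upper tail did not overlap. The share of island bases in islands of at least 10 kb was 26.4%, 25.7% and 35.4% for H3K9me3 and 47.8%, 49.2% and 44.1% for H3K9Ac, and the island length above which 50% of the covered bases lay was 6067 ± 833 and 9133 ± 643 bp. Islands over 50 kb numbered 104, 58 and 276 under H3K9me3 and 298, 392 and 355 under H3K9Ac.

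The longest islands themselves differed in what they held. In all 3 H3K9Ac libraries the longest was a stretch of 281 to 312 kb on chromosome 15 around Myc, a transcription factor gene of cell growth, for example at chr15:61915401-62227000 (mm10) in replicate 2. The next included 1 of 176 kb over Tns3, which links the cytoskeleton to adhesion sites, and 1 of 166 kb over 9 genes with Notch1 and Card9. Of the 9 longest H3K9me3 islands, 3 per library, 6 lay on chromosome 3, and 4 of those contained no protein-coding gene, up to 326 kb at chr3:72325001-72651200 in replicate 3. Those with genes held the neuronal gene Fstl5, the zinc finger genes Zfp982 and Zfp985, the chitinase family genes Chia1, Chil3 and Chil4, or the pair Lratd2 and A1bg.

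**Figure D1:**
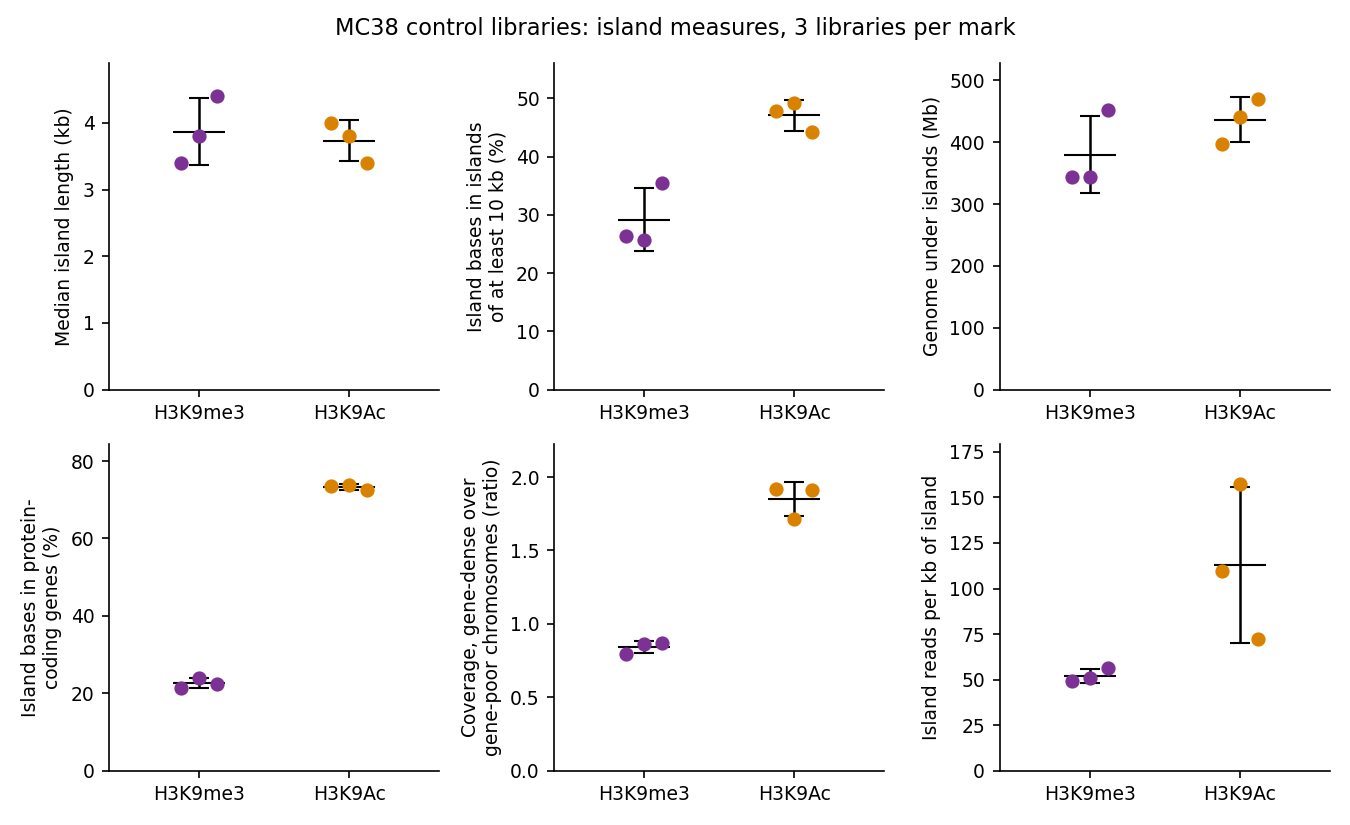
Island measures of the 6 MC38 control libraries: each point is 1 library, in the order of its replicate number from left to right, and bars give the mean ± SD (n = 3). Median length and covered genome overlap between the marks, while the share of bases in long islands, the share in genes, the ratio of gene-dense to gene-poor chromosomes and the reads per kb do not.

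The genome under islands did not differ between the marks beyond the spread of the libraries. H3K9me3 islands covered 345, 344 and 452 Mb and H3K9Ac islands 398, 440 and 470 Mb, or 14.4% ± 2.36 and 16.6% ± 1.38 of 2632 Mb. The ranges overlapped (exact two-sided permutation p = 0.3). Reads were denser in H3K9Ac islands, at 109, 158 and 72.1 reads per kb against 49.1, 50.7 and 56.4 for H3K9me3, with no overlap (exact permutation p = 0.1, the smallest that 3 against 3 libraries allow). Without H3K9Ac replicate 2, which held the most island reads, the difference was -38.7 in place of -61.0. Island reads were also more numerous in every H3K9Ac library, and the part of depth in this measure was not tested.

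The marks lay on separate bases. Of the bases under H3K9me3 in a library, 0.522% to 2.78% were also under H3K9Ac islands over the 9 pairs of libraries, where H3K9Ac covered 15.1% to 17.9% of the genome. H3K9me3 reads in islands were at 49.0, 51.4 and 56.6 per kb in genes with both marks, 48.7, 48.8 and 55.8 in genes with H3K9me3 alone and 49.2, 50.7 and 56.5 outside genes. Libraries of the same mark shared 49.4% to 69.4% of their bases for H3K9me3 and 72.2% to 85.3% for H3K9Ac. Thus 151 Mb were under H3K9me3 in all 3 libraries, 23.3% of the bases covered in any, and 294 Mb were under H3K9Ac in all 3, 49.5% of those covered in any. Only 179 kb were under both marks in all 6 libraries, and 53.4% of the genome was under neither mark in any.

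The marks differed in how much of them lay in genes. Of the bases under H3K9me3 islands, 21.3%, 23.9% and 22.5% lay between the start and end of a protein-coding gene, and of those under H3K9Ac islands 73.7%, 73.9% and 72.4%, while such genes make up 39.1% of the chromosomes. The groups were far apart relative to their spread, at 22.6% ± 1.32 and 73.3% ± 0.784 (exact two-sided permutation p = 0.1, 0.167 after Benjamini-Hochberg adjustment over 5 measures). Seen from the genes, H3K9Ac islands covered 31.1% ± 2.35 of gene bases and H3K9me3 islands 8.33% ± 1.40.

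The same contrast held along the chromosomes in 1 Mb bins. In the 330 bins with no protein-coding gene, H3K9me3 covered 25.6%, 15.4% and 30.2% of bases and H3K9Ac 0.440%, 0.928% and 0.508%. In the 252 bins with more than 20 genes the order was turned, with 7.56%, 9.44% and 9.83% under H3K9me3 and 40.2%, 37.9% and 45.4% under H3K9Ac. Bins with 1 to 5 genes had 16.7% ± 3.46 and 7.32% ± 1.38, and bins with 6 to 20 genes 10.4% ± 2.04 and 25.2% ± 2.27, so at each step to more genes the H3K9me3 mean was lower and the H3K9Ac mean higher. H3K9me3 replicate 2 stood apart in this, with the lowest coverage of bins without genes and the highest of bins with 6 to 20, but the marks did not overlap in any class of bins.

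**Figure D2:**
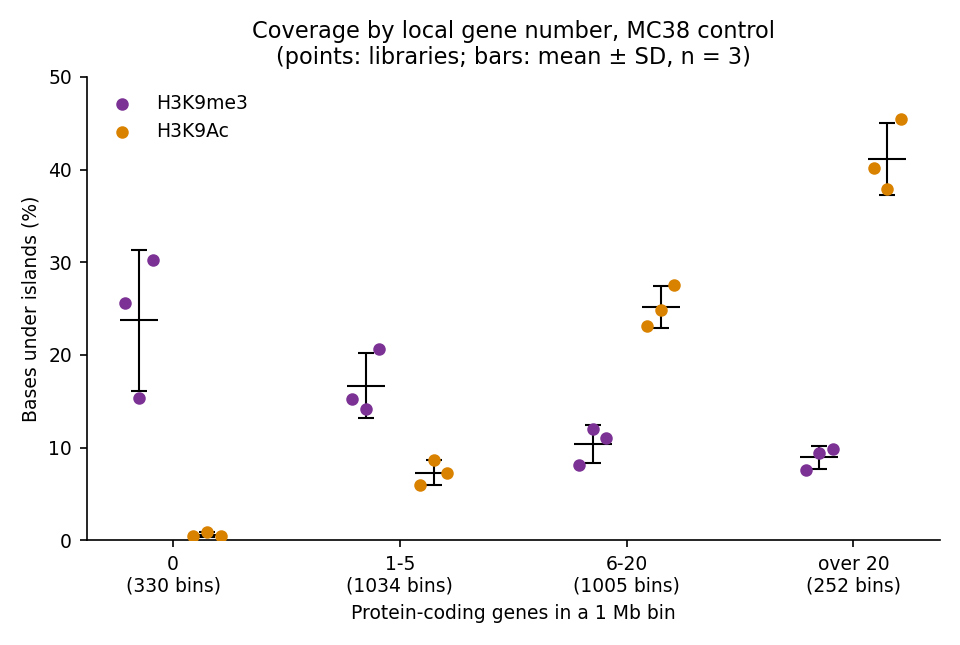
Percent of bases under islands in 1 Mb bins grouped by their number of protein-coding genes (x axis, with the number of bins). Points are libraries and bars the mean ± SD (n = 3): H3K9me3 goes down from 23.7% in bins without genes to 8.95% in bins with more than 20, and H3K9Ac goes up from 0.625% to 41.2%.

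Among whole chromosomes, H3K9Ac was higher where genes were denser, and H3K9me3 showed little relation to gene density. Coverage on the 5 chromosomes with the most protein-coding genes per Mb (7, 11, 19, 17 and 2) was divided by that on the 5 with the fewest (1, 3, 12, X and 18). The ratio was 0.797, 0.865 and 0.867 for H3K9me3 and 1.92, 1.72 and 1.91 for H3K9Ac, again without overlap (exact two-sided permutation p = 0.1, 0.167 after adjustment). Over the 20 chromosomes, H3K9Ac coverage and genes per Mb had Pearson's r of 0.736, 0.663 and 0.721, and H3K9me3 coverage had -0.116, -0.0686 and -0.101. These are descriptions over chromosomes of the same libraries, which share depth and islands.

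The H3K9me3 ratio below 1 rested on chromosome 3. This chromosome was under H3K9me3 islands over 38.3%, 39.4% and 46.1% of its length, against 16.3%, 19.3% and 19.3% under H3K9Ac, and no other chromosome reached 25% in any H3K9me3 library. Without it the H3K9me3 ratio was 1.49 and the H3K9Ac ratio 2.17, and without chromosomes 3 and X they were 1.06 and 1.59 (both chosen after seeing the data). H3K9me3 covered 15.0% ± 1.54 of chromosome 3 in B16 controls and 40.9% ± 7.08 in MC38 Setdb1 KO libraries, where H3K9Ac covered 12.6% ± 0.627 and 18% ± 1.56. H3K9me3 exceeded H3K9Ac in every library on chromosomes 3, 6 and 13, H3K9Ac exceeded H3K9me3 in every library on 10 chromosomes, and the marks overlapped on 7. Chromosome X was nearly bare, with 0.208% ± 0.0296 under H3K9me3 and 1.35% ± 0.205 under H3K9Ac. The B16 controls had 0.644% ± 0.101 and 1.37% ± 0.0658 there. Chromosome copy number was not measured, and its part in coverage or gene classes by chromosome was not tested.

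**Figure D3:**
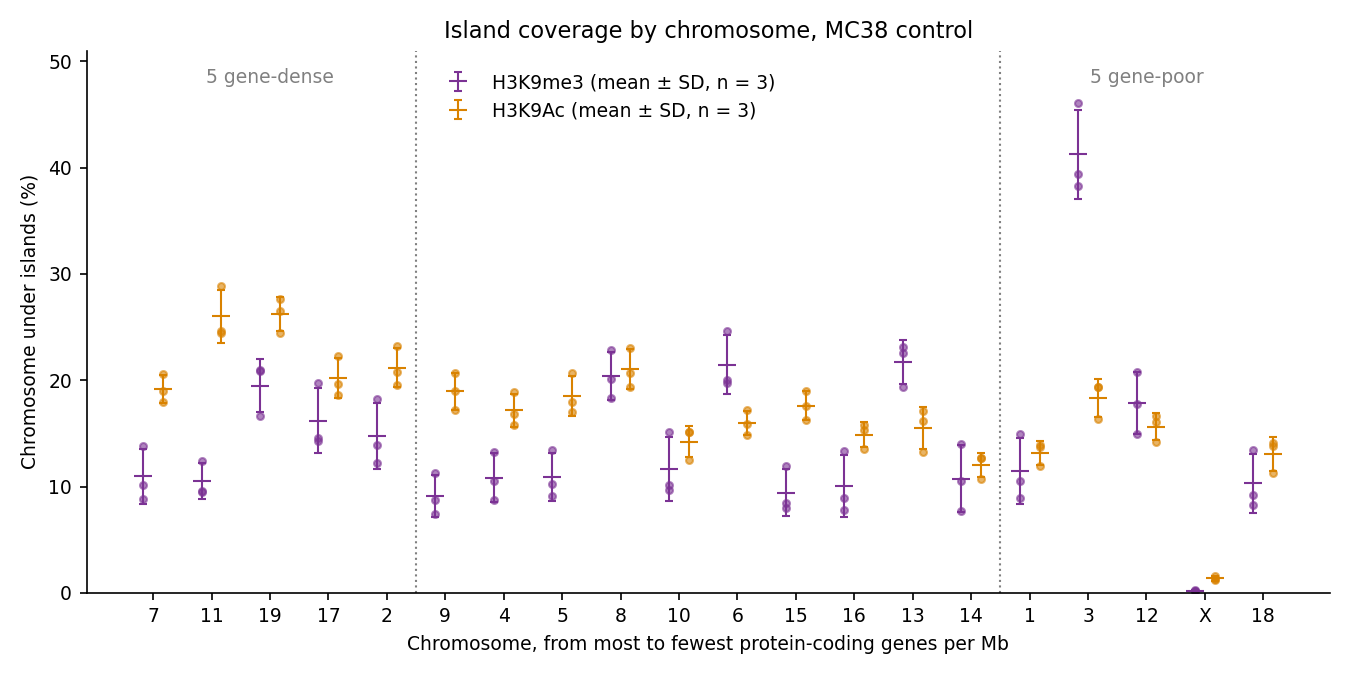
Percent of each chromosome under islands, with chromosomes ordered from most to fewest protein-coding genes per Mb. Small points are libraries and bars the mean ± SD (n = 3): H3K9me3 peaks on chromosome 3 at 41.3% and H3K9Ac on chromosomes 19 and 11 at 26.2% and 26%, and both are lowest on X.

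Genes were then sorted by the marks over the same span. Of 21627 protein-coding genes, 15024 (69.5%) carried H3K9Ac in all 3 libraries and 3142 (14.5%) carried H3K9me3 in all 3. H3K9Ac in all 3 with no H3K9me3 (under 200 bp) in any was found at 11450 genes (52.9%), and H3K9me3 in all 3 with no H3K9Ac in any at 1093 (5.05%). Both marks in all libraries were found at 1605 genes (7.42%) and neither in any at 2306 (10.7%). The other 5173 had a mark in 1 or 2 of its libraries, most often H3K9Ac in all 3 and H3K9me3 in 1 or 2 (1969 genes). The counts by library were 4747, 5548 and 4787 genes for H3K9me3 and 15787, 15588 and 16276 for H3K9Ac. Overlapping genes share islands, and families of near-identical genes share reads that the files do not separate, so their members are uncertain one by one.

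The classes were unevenly spread over the chromosomes. On chromosome 3, 111 of 983 protein-coding genes (11.3%) carried H3K9me3 and no H3K9Ac, 174 (17.7%) carried both marks and 15 (1.53%) neither. Chromosome 6 had 119 of 1126 genes (10.6%) with H3K9me3 alone and chromosome 13 had 118 of 829 (14.2%) with both, where all chromosomes together had 5.05% and 7.42%. Chromosome 8, with 20.4% of its length under H3K9me3, had 3.84% of genes with H3K9me3 alone, and chromosome 18, with 10.3%, had 14.3% with both. Over the gene-poor autosomes 12.6% of genes carried both marks, and over the gene-dense chromosomes 5.61%. H3K9Ac alone was found at 49.9% and 56.1% of genes, and at 64.4% of those on the gene-dense chromosomes once receptors of smell and pheromones were set aside.

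Genes that every dividing cell uses mostly carried H3K9Ac alone. All 20 cell cycle and replication genes did, with Mki67, Pcna and Trp53 among them, and 78 of 81 cytosolic ribosomal protein genes, 54 of 57 replication-dependent histone genes and 19 of 20 housekeeping genes, against 52.9% of all genes. H3K9Ac islands covered 88.0%, 89.4% and 80.9% of the ribosomal protein gene regions, and 28.9%, 31.8% and 33.3% of the regions of all protein-coding genes. Actb and Gapdh, for cytoskeletal actin and a glycolytic enzyme, had 8.86, 8.86 and 8.58 kb and 8.62 kb in each library under H3K9Ac and no H3K9me3 island.

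The genes with the most H3K9Ac reads for their length, ranked by the lowest library, included Myc, the transporter-like gene Slc35e4, Hoxa10, the cell cycle inhibitors Cdkn1b and Cdkn2c, Hoxc12 and Foxl1. Myc had 6.23, 6.12 and 5.76 island reads per kb of its region and per 1000000 H3K9Ac island reads, with its whole 9.02 kb region acetylated in every library and no H3K9me3 island. The other 6 of these genes lay between 4.42 and 8.66 on that scale. Of the Hox genes, which lay out the body axis, 74.4% carried H3K9Ac in all 3 libraries, near the 69.5% of all genes. H3K9Ac alone was more frequent, at 29 of 39 (52.9% of all genes). None carried H3K9me3 in all 3 libraries (14.5% of all genes). H3K9Ac covered 60.3%, 58.6% and 64.0% of their regions, beside 28.9%, 31.8% and 33.3% of the regions of all protein-coding genes.

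Genes with H3K9me3 alone were led by members of clusters and by genes of other tissues. The first 8 by the same ranking were A1bg, Zfp992, the chitinase-like Chil4, the sperm kinase gene Smok2b, the pheromone receptor gene Vmn2r3, the macrophage protein gene Cd5l, Zfp936 and Npy2r, a receptor for neuropeptide Y. A1bg had 7.64, 8.90 and 6.37 H3K9me3 island reads per kb and per 1000000 island reads, and its 7.68 kb region was covered whole in each library. Zfp936, the least covered of the 8, had 91.9%, 79.5% and 88.3% of its region under H3K9me3. None of the 8 had an H3K9Ac island, and 4 of them lay on chromosome 3. A1bg, at chr15:60917589-60921270, lay on the same chromosome as Myc, at chr15:61985341-61990361. In replicate 2 the island with A1bg held 155 H3K9me3 reads per kb, beside 50.7 over all islands. The Myc islands held 271, 424 and 195 H3K9Ac reads per kb, beside 109, 158 and 72.1 over all islands. Local copy number was not measured, and its part in either ranking was not tested.

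Receptor genes of smell and pheromone sensing made up 231 of the 1093 genes with H3K9me3 alone (21.1%), beside 6.75% of all protein-coding genes. Among vomeronasal receptors 91 of 353 carried H3K9me3 alone and 2 H3K9Ac alone, and among olfactory receptors 140 of 1106 and 13. H3K9me3 islands covered 30.9%, 24.5% and 37.9% of the vomeronasal regions and 17.4%, 10.8% and 26% of the olfactory regions. Replicate 2 was the lowest in both, and H3K9Ac stayed at or below 1.95% in every library. H3K9me3 in all 3 libraries was found at 101 vomeronasal genes (28.6%) and 144 olfactory genes (13%). All protein-coding genes had 14.5%, so the olfactory share was not above that background on this measure. H3K9me3 alone was found at 12.7% of olfactory genes, against 5.05% of all genes and 6.89% of genes up to 5 kb. The olfactory cover lay above the 7.06%, 7.95% and 9.75% of all protein-coding gene regions. Neither mark in any library was found at 162 (45.9%) and 389 (35.2%), against 10.7% of all protein-coding genes and 27.1% of genes up to 5 kb. Olfactory genes had a median of 0.95 kb and all genes 17.3 kb, and the part of length was not tested. The sequences of such receptors are alike, which leaves single members uncertain.

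Families of skin and mucosal defence had H3K9me3 in all 3 libraries less often than all protein-coding genes. Its islands still reached into their regions. Of 70 defensins, small antimicrobial proteins, 3 carried H3K9me3 alone, 2 H3K9Ac alone and 35 neither mark, a class that held 10.7% of all protein-coding genes. Of 52 keratin-associated proteins of hair, 2 carried H3K9me3 alone, 5 H3K9Ac alone and 19 neither. H3K9me3 in all 3 libraries was found at 4.29% and 3.85% of them, where all protein-coding genes had 14.5%. These are short genes, with medians of 1.92 kb for defensins and 0.82 kb for keratin-associated proteins. Of all genes up to 5 kb, 6.89% carried H3K9me3 alone, 0.371% both marks and 27.1% neither. The part of length in these shares was not tested. H3K9me3 islands covered 8.42%, 8.90% and 20.6% of the keratin-associated regions, more than the 7.06%, 7.95% and 9.75% of all protein-coding gene regions in the same libraries, and 5.64% to 11.3% of the defensin regions. The defensin values lay around those of all genes.

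Genes of other lineages carried either mark. The melanocyte enzyme gene Dct had 3.80, 5.20 and 9.40 kb of H3K9me3 and no H3K9Ac island, and Ednrb was in the same class, while Mitf, the master regulator of melanocytes, had 64.8, 105 and 80.2 kb of H3K9Ac. Of 13 leukocyte markers only Adgre1 carried H3K9me3 alone (7.69%, against 5.05% of all genes). Cd68, Csf1r, Lyz2 and Spi1 carried H3K9Ac alone (30.8%, against 52.9%). The pan-leukocyte gene Ptprc had 7.40, 7.36 and 5.20 kb of H3K9Ac beside 9.40 kb of H3K9me3 in replicate 3 only. Lgr5 had 1.40, 8.60 and 9 kb of H3K9me3, lowest in replicate 1.

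Genes of the germ line were mixed. Of 20 listed, 10 carried H3K9me3 in all 3 libraries against 14.5% of all genes. Of these, 4 had it alone (5.05% of all genes). They were the germ cell helicase gene Ddx4, the piRNA pathway genes Mael and Piwil1, and the meiosis gene Sycp1. Ddx4 had 8.07, 44.3 and 29.1 kb of H3K9me3 islands and Sycp1 27.2, 39.3 and 43.8 kb, with replicate 1 the lowest for each. Piwil2 had H3K9Ac alone, with 31.4, 30.4 and 36.7 kb. Of 17 imprinted genes, which are expressed from 1 parental copy, 8 had a mark in part of its libraries only and 2 carried neither. Peg3 and Snrpn carried H3K9me3 alone (11.8%, against 5.05% of all genes), and Gnas and Grb10 both marks (11.8%, against 7.42%). Igf2, Igf2r and Ube3a carried H3K9Ac alone (17.6%, against 52.9%). Grb10 had 47.8, 56.3 and 50.5 kb of H3K9me3 beside 19.6 to 28 kb of H3K9Ac.

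Genes of synapses and ion channels held long stretches of H3K9me3. Of 20 listed, 19 carried it in all 3 libraries (14.5% of all protein-coding genes did), 12 of them with H3K9Ac in all 3 as well (7.42% of all genes, and 33.6% of genes over 100 kb) and 5 alone (5.05% and 6.72%). Kcnd2 was the exception, with 3.20 kb in replicate 1 only. These are very long genes, with a median of 1181 kb where all protein-coding genes had 17.3 kb, so that a mark needs to reach only a small part of them to be counted. H3K9me3 islands covered 17.8%, 9.33% and 23.6% of their regions, beside 7.06%, 7.95% and 9.75% of the regions of all protein-coding genes, and H3K9Ac 0.446%, 0.998% and 0.441%. Members varied widely. Grm7, a glutamate receptor gene, had 720, 543 and 769 kb under H3K9me3 and no H3K9Ac island, and Ctnna2, a neuronal catenin gene, 667, 412 and 773 kb. Csmd1 had 290, 78.6 and 346 kb. In each of these 3 genes replicate 2 was the lowest and replicate 3 the highest. Cntnap2, a neurexin family gene of 2241 kb with both marks, had only 30.6, 2.80 and 19.6 kb of H3K9me3 and at most 4.00 kb of H3K9Ac.

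**Figure D4:**
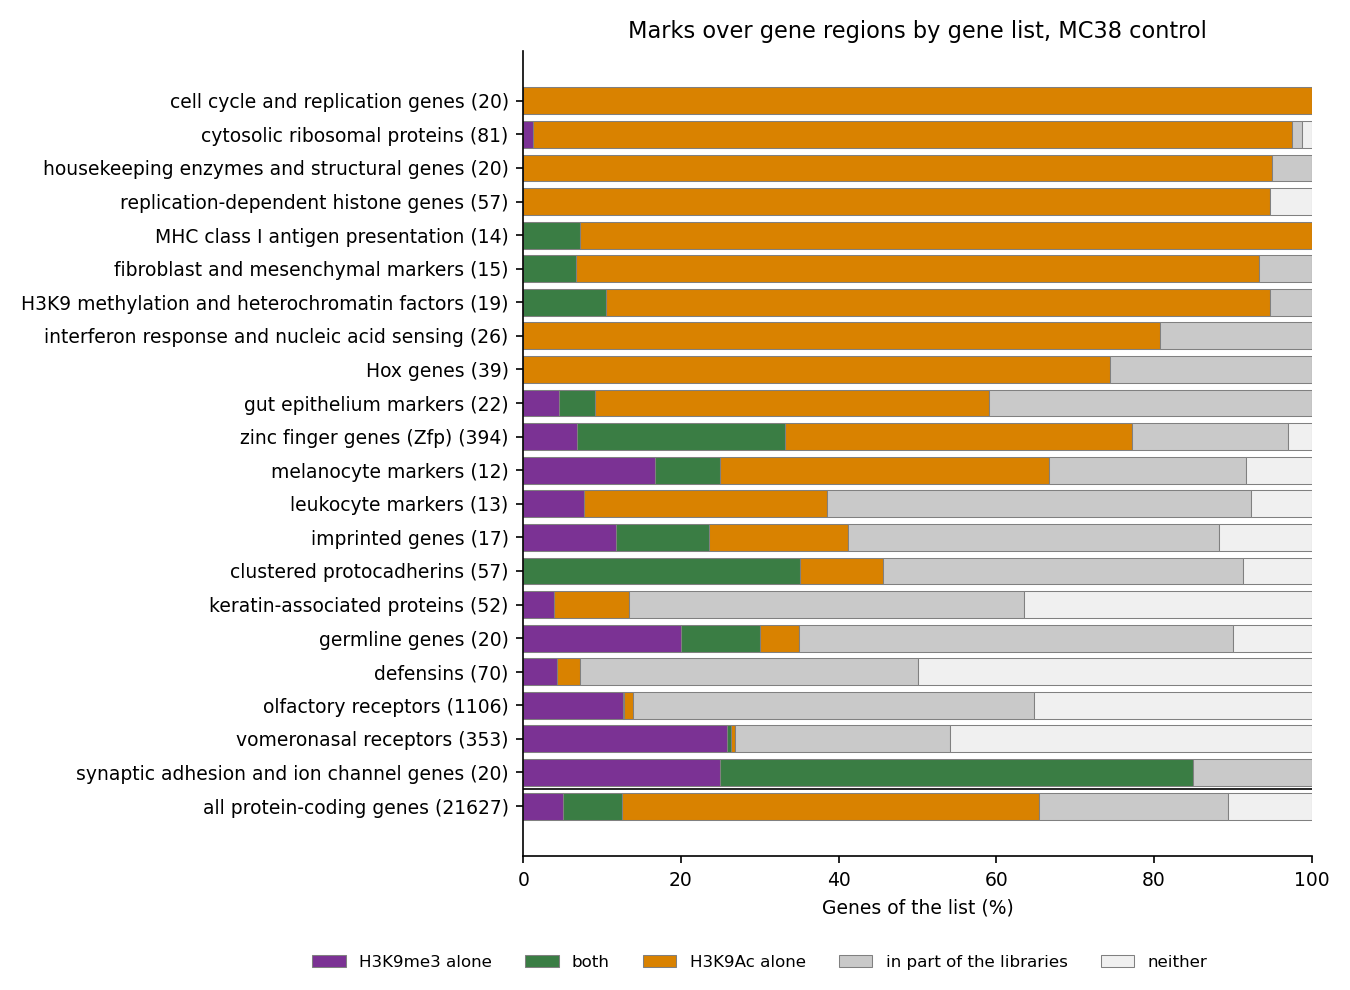
Share of the genes of each list (y axis, number of members in brackets) by the marks over the gene region in all 6 libraries; the bottom bar gives all protein-coding genes, and "in part of the libraries" means a mark in 1 or 2 of its 3 libraries. H3K9Ac alone is found at all 20 members of the cell cycle list and at none of the synaptic list, where 12 of 20 carry both marks.

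Genes with both marks were long, and 815 of them were over 100 kb. The 1605 genes had a median length of 102 kb, beside 18.7 kb for H3K9me3 alone, 17.6 kb for H3K9Ac alone and 4.01 kb for neither. Both marks were found at 33.6% of genes over 100 kb and at 0.371% of genes up to 5 kb. In 1346 of them each mark had bases present in all 3 of its libraries. Of these, 80 (5.94%) had such bases of both marks in common, and the median distance between the nearest such bases of each mark was 7.90 kb. Requiring all 6 libraries makes common bases rarer, since libraries of the same mark shared only part of their bases.

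Zinc finger genes named Zfp, whose products often silence transposable elements, carried both marks in 104 of 394 cases (26.4%, against 7.42% of all genes), H3K9Ac alone in 173, and H3K9me3 in all 3 libraries in 146 (37.1%, against 14.5%). By chromosome, H3K9me3 in all 3 libraries was found at 31 of 37 Zfp genes on chromosome 13, 19 of 27 on chromosome 4, 25 of 45 on chromosome 17, 20 of 93 on chromosome 7 and 1 of 11 on each of chromosomes 15 and 18. In those with both marks the marks lay at opposite ends of the gene. Each gene with a known strand was divided into 10 equal parts from its 5' end. Over 91 such genes, H3K9Ac islands covered 73.2%, 76.3% and 74.3% of the first part and 6.19%, 8.79% and 8.65% of the last. H3K9me3 covered 5.42%, 6.89% and 4.60% of the first part and 67.2%, 70.3% and 62.1% of the last. Neither end overlapped between the marks. Over all 1240 stranded genes with both marks the means went from 12.4% to 17% for H3K9me3 and from 31.5% to 28.4% for H3K9Ac, with no such opposition. Of the 98 Zfp genes where each mark had bases in all 3 of its libraries, 3 had such bases in common. Zfp382 gives an example, with 7.40, 5.96 and 4.20 kb of H3K9me3 and 3.00, 2.40 and 3.60 kb of H3K9Ac.

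**Figure D5:**
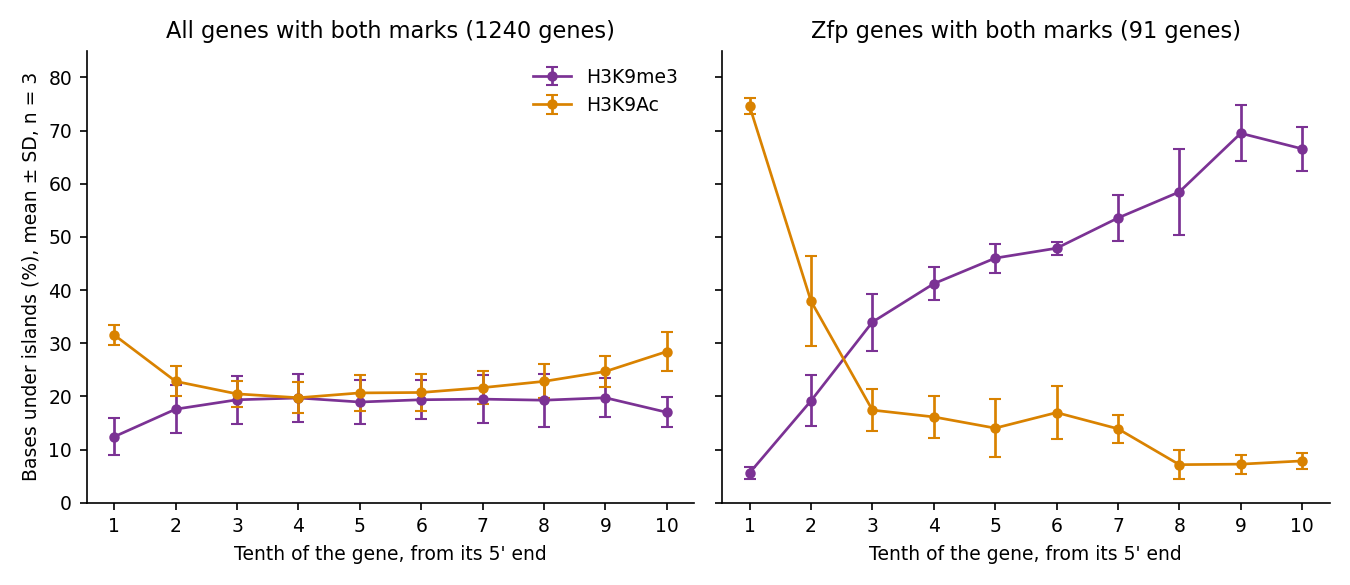
Percent of bases under islands in 10 equal parts of the gene from its 5' end, for all genes with both marks (left) and for the Zfp genes among them (right); points are means over 3 libraries and bars the SD. In the Zfp genes H3K9Ac goes from 74.6% in the first part to 7.88% in the last and H3K9me3 from 5.64% to 66.6%, while in all genes with both marks the curves stay between 12.4% and 31.5%.

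Other genes with both marks were Nmd3, an export factor for ribosomes, the cyclin gene Ccnl1, Litaf, Bglap3, Resf1, Nxnl1, the zinc transporter gene Slc30a4 and Sfi1, which led the ranking over both marks. Nmd3 had 42.7%, 71.1% and 53.7% of its region under H3K9me3 and 91.0%, 85.3% and 91.6% under H3K9Ac. Litaf was mostly acetylated, with 92.8%, 96.5% and 91.2% under H3K9Ac and 1.06%, 1.06% and 3.17% under H3K9me3. Its H3K9me3 islands spanned only 0.4, 0.4 and 1.2 kb. On the scale given for Myc they held 1.25, 0.992 and 0.813 H3K9me3 reads per kb of region. Nmd3 held 1.07, 1.94 and 1.1 over far longer stretches. Sfi1 had 21.7%, 21.2% and 21.2% under H3K9me3, and 96.8%, 58.7% and 100% under H3K9Ac. On the same scale it held 5.9, 5.33 and 4.12 H3K9me3 reads per kb of region. H3K9me3 reads were thus packed into few bases at Litaf and Sfi1. The source of this excess was not tested, so the place of both genes in the ranking is uncertain. Clustered protocadherins, adhesion proteins that give neurons their identity, had 20 of 57 members with both marks (35.1%, against 7.42% of all genes). All 20 lay in the alpha and gamma clusters, and no member had H3K9me3 alone (5.05% of all genes). Members of a cluster are annotated with the same last exons, so 1 island can count for many of them. H3K9me3 islands covered 2.47%, 7.09% and 4.48% of the protocadherin regions, highest in replicate 2, and H3K9Ac 9.45%, 9.21% and 14.2%. Both marks lay below their cover of all protein-coding gene regions in each library. That was 7.06%, 7.95% and 9.75% for H3K9me3 and 28.9%, 31.8% and 33.3% for H3K9Ac.

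Bases under both marks in all 6 libraries formed 186 runs with a median of 600 bp, and 67 of them (36.0%) lay on chromosome 3. That chromosome made up 160 of 2632 Mb. H3K9me3 covered 41.3% of it against 14.4% of all chromosomes, and H3K9Ac 18.3% against 16.6%. How much of the 36.0% follows from this cover was not tested. The longest run covered 5.60 kb at chr8:123426201-123431800 (mm10), outside protein-coding genes. Its islands held 82.4, 68.6 and 77.8 H3K9me3 reads per kb and 241, 305 and 126 H3K9Ac reads per kb. Runs were also found in Ccnl1, the membrane protein gene Tm4sf1, Zfp984 and Tert, which encodes the catalytic subunit of telomerase. Whether both marks sat in the same cells or on the same copy of a region cannot be told apart in these libraries.

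Many genes with neither mark were short, receptors of smell or on X. Of the 2306, 1313 were at most 5 kb long. Chromosome X held 578 of them (25.1%) beside 4.47% of all protein-coding genes, and receptors of smell and pheromones 551 (23.9%). Together they made up 1122 (48.7%). On X itself 578 of 966 genes carried neither mark, 334 carried H3K9Ac alone and 2 H3K9me3 alone. The 8 longest genes with neither mark were all on X: Tenm1, Pcdh11x, Dach2, Fgf13, Aff2, Mageb18, Rtl4 and Eda, from 901 kb down to 425 kb. Not all of X was bare, since Hprt, for a purine salvage enzyme, had 4.20, 4.40 and 4.40 kb of H3K9Ac.

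The marks differed in the CpG content of the promoters they lay on. For 17273 genes with a RefSeq promoter (GRCm38.p6, 250 bases before to 50 after the start), the classes had a median of 20 CpG with H3K9Ac alone, 12 with both marks, 2 with H3K9me3 alone and 2 with neither, where all promoters had 14. In promoters with 0 or 1 CpG, H3K9Ac reached the 1 kb around the start site in all 3 libraries in 7.59% and H3K9me3 in 8.46%. With 2 to 5 CpG the shares were 24.3% and 4.48%, and with 6 to 15 they were 56.7% and 1.27%. In those with 16 or more, the shares were 83.1% and 0.392%. The start was acetylated at 89.5% of genes with H3K9Ac alone and 42.7% of genes with both marks. H3K9me3 reached it at 33.8% of genes with H3K9me3 alone and 4.44% of genes with both. Start sites with both marks in all 6 libraries were found at 10 genes, Aadacl2, Best1, Dnajc1, Gimap6, Gm32584, Gm3604, Rab3il1, Zfp458, Zfp595 and Zfp984.

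The promoters of 5 genes are given as examples, 300 bases each from 5' to 3' on the gene's strand, with each CG in capitals. They belong to the first gene in each ranking with a promoter in the table, apart from Gapdh and Zfp382. These 2 stand for a housekeeping gene and a zinc finger gene with both marks. Unlike the class medians, the examples with H3K9Ac alone had 13 and 12 CpG and those with both marks 26 and 32.
A1bg, H3K9me3 alone, chr15:60921221-60921520, minus strand, 5 CpG: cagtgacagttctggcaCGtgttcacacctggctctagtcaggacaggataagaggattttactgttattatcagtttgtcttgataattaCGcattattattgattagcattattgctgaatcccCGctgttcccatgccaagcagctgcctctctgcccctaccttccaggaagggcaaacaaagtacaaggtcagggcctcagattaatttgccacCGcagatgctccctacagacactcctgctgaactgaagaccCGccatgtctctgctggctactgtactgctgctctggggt
Slc35e4, H3K9Ac alone, chr11:3914615-3914914, minus strand, 13 CpG: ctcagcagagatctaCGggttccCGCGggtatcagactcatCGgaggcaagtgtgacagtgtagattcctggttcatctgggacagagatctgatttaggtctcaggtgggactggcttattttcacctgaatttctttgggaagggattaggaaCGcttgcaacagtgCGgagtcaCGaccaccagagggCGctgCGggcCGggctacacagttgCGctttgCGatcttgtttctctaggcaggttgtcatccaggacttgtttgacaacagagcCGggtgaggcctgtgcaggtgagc
Gapdh, H3K9Ac alone, chr6:125165724-125166023, minus strand, 12 CpG: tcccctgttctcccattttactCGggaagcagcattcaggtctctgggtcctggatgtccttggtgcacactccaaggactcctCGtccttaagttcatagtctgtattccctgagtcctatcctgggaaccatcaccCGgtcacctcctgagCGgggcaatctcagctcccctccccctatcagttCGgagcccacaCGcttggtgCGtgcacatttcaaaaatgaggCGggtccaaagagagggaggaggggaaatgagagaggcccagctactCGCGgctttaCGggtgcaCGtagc
Nmd3, both marks, chr3:69721805-69722104, plus strand, 26 CpG: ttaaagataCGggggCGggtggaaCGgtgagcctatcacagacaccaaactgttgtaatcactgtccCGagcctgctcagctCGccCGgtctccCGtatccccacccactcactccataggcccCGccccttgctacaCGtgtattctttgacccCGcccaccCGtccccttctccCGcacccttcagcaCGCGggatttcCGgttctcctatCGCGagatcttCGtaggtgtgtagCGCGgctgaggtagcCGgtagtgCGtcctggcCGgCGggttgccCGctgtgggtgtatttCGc
Zfp382, both marks, chr7:30121682-30121981, plus strand, 32 CpG: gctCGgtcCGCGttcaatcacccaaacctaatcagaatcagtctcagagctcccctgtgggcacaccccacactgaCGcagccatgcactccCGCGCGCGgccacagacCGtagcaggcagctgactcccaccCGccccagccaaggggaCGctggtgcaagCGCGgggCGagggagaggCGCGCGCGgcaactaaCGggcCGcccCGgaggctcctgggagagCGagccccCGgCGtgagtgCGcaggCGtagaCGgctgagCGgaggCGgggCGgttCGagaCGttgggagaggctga
The 1 kb on both sides of the A1bg start was under H3K9me3 over its whole length in all 3 libraries and had no H3K9Ac. At Slc35e4, Gapdh and Nmd3 that span was under H3K9Ac over its whole length in all 3 libraries and had no H3K9me3. At Zfp382 it was under H3K9Ac over 2.00, 1.93 and 1.40 kb, again with no H3K9me3, so that its H3K9me3 lay further down the gene.

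Genes of the H3K9me3 machinery and of antigen presentation carried H3K9Ac. Setdb1, the gene targeted in the KO cells, had 31.9, 33.7 and 34.9 kb under H3K9Ac and no H3K9me3 island, as had Trim28, its recruiter, and Cbx5, which encodes an HP1 protein. Of 19 such factors 16 carried H3K9Ac alone, which 52.9% of all protein-coding genes did. The Setdb1 partner gene Atf7ip carried both marks, with 4.40, 9.21 and 3.60 kb of H3K9me3, as did Morc2a, with 3.21, 0.212 and 2.01 kb. Among MHC class I genes 13 of 14 carried H3K9Ac alone, B2m, H2-K1 and Tap1 included, and the peptide-trimming enzyme gene Erap1 had 3.00, 4.80 and 2.40 kb of H3K9me3 as well. Of 26 interferon and nucleic acid sensing genes 21 carried H3K9Ac alone, such as Isg15, Ddx58 and Oas1a, and only Oasl1 had H3K9me3 in all 3 libraries, at 0.400, 0.200 and 0.200 kb. On the scale given for Myc, Oasl1 held 1.53, 1.08 and 0.814 H3K9me3 reads per kb of region. These were packed into few bases, as at Litaf, and their source was not tested.

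The contrast between the marks was compared with that in B16 controls and MC38 Setdb1 KO cells. No difference in 5 measures passed in 10 exact permutation tests of the group labels within each mark. The share of island bases in genes was 23.9% ± 1.03 and 74.8% ± 1.74 in B16 controls and 22.9% ± 1.03 and 73.0% ± 1.12 in MC38 Setdb1 KO libraries for H3K9me3 and H3K9Ac. The mark difference in MC38 controls was 0.158 points smaller than in B16 (exact permutation p = 0.93) and differed by -0.680 points from that in MC38 Setdb1 KO cells (exact permutation p = 0.565). The gap between the marks in the ratio of gene-dense to gene-poor coverage was -1.01 in MC38 controls, -0.852 in B16 (exact permutation p = 0.16) and -1.03 with the Setdb1 guide (exact permutation p = 0.845). Reads per kb had the lowest p, 0.075 against the KO cells (0.75 after Benjamini-Hochberg adjustment over 10 tests), where H3K9me3 was at 77.0 ± 13.4 and H3K9Ac at 86.5 ± 19.7.

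Many genes were in the same class in the other cells, least often so for H3K9me3 alone. B16 controls had 994 genes with H3K9me3 alone, 9388 with H3K9Ac alone, 3144 with both and 2770 with neither. Of the 1093 MC38 control genes with H3K9me3 alone, 340 were in that class in B16 (31.1%, or 34.2% of the B16 genes) and 559 in MC38 Setdb1 KO cells (51.1%, or 73.4% of 762). For H3K9Ac alone the shared genes numbered 8564 in B16 (74.8%, or 91.2% of the B16 genes) and 10889 in the KO cells (95.1%, or 91.0% of 11969). Of the 1605 genes with both marks, 1162 were in the class in B16 (72.4%, or 37.0% of the B16 genes) and 975 in the KO cells (60.7%, or 87.1% of 1119). Of the 1093, 147 carried H3K9Ac in all 3 B16 control libraries and none did in the KO libraries. These are counts, and the difference between the cells was not tested. H3K9me3 islands covered 563, 442 and 215 Mb in the KO libraries, beside 345, 344 and 452 Mb in MC38 controls. A class with H3K9me3 needs the mark in all 3 libraries, so the KO library with 215 Mb limits these counts.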

How the data were processed

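Chromatin immunoprecipitation libraries of MC38 control cells were used, 3 for H3K9me3 and 3 for H3K9Ac, with those of B16 controls and MC38 Setdb1 KO cells for comparison. Islands of the B16 Setdb1 KO libraries and the inputs were not used here. The submitters' processing notes name cutadapt, Bowtie2 2.1.0, SAMtools 0.1.8, SICER 1.1, deepTools 3.1.1 and the mm10 build. Islands were called in each library, by the settings recorded with the deposited files, with a window of 200 bp, a gap of 600 bp and a false discovery rate of 0.05. Each deposited line holds an island and the count of reads in it, as made by the authors, and counts were not scaled. The input used as background and the read filters are not given in the sources used here, and island calling at unequal depth can change lengths and coverage.

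Islands on chromosomes 1 to 19 and X were kept. Genes came from the RefSeq table of GRCm38.p6, the assembly behind mm10, with 21627 protein-coding genes. Chromosome lengths were taken as the farthest island or gene end. Libraries were compared by exact two-sided permutation tests, which cannot go below 0.1 with 3 against 3, with Benjamini-Hochberg adjustment. No count test between the marks was run for single genes, because 2 antibodies have no common scale. The gene scripts were tested on simulated data. Python 3.11.15, numpy 2.4.6, pandas 2.3.3, scipy 1.17.1 and matplotlib 3.10.9 were used.

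Named genes were the first 8 of each class, at least 1 Mb apart, by the lowest library's reads per kb (the longest for neither mark), the first 3 members of each of 21 lists, Setdb1, Actb and Gapdh. Other named genes were chosen after their values were seen. A gene that the rule selects is not reported here. Members and lists were chosen with earlier results of these data known. Alternatives were stricter islands (without the 25% of islands with the fewest reads per kb), islands of at least 1 kb, autosomes, other gene regions and sets, left-out libraries and a replicate block. The ratio without chromosomes 3 and X was added after seeing the data.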

Additional observations from a re-analysis of the deposited data

How the results depend on the processing

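The difference between the marks in median island length, 133 bp longer for H3K9me3, changed sign with stricter islands (-133 bp), with mean length (-905 bp) and with the length above which 50% of the covered bases lay (-3067 bp), none with an exact permutation p under 0.1. Leaving out 1 library at a time gave -133 to 367 bp, with negative values without H3K9me3 replicate 3 (-133) or H3K9Ac replicate 3 (-33.3). The differences in covered genome (-91.8 to -38.0 Mb), share in genes (-51.4 to -50.1 points), gene-dense to gene-poor ratio (-1.07 to -0.970) and reads per kb (-81.4 to -38.7) kept their sign whichever library was left out. With the replicate block these differences were the same by construction, with exact p = 0.25, the smallest that 3 pairs allow, and exact p = 1 for median length. Same-numbered libraries had correlations of deviations of 0.233, -0.197 and -0.334, and other pairs -0.180 to 0.333. Such values between different marks cannot show whether the numbers pair libraries. Stricter islands turned the 0.158 point difference from B16 in the share in genes to -0.506.

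Counts of genes moved with the region and gene set. Requiring most of the region under islands gave 397 genes with H3K9me3 alone, 0 with both and 8669 with neither. Using 1 kb around the start site gave 383, 10 and 4234. All 49550 genes of the table gave 4230 with H3K9me3 alone, 18720 with H3K9Ac alone and 9417 with neither. These follow from the smaller or larger set of bases and genes. Leaving out 1 library gave 1126 to 1468 genes with H3K9me3 alone, 11533 to 12125 with H3K9Ac alone, 1656 to 2006 with both and 2349 to 2659 with neither. By construction these counts cannot fall, since fewer libraries have to meet the rule.

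Depth differed between the marks and limits comparison of their coverage, 3 libraries per mark limit each test between the marks to 0.1, and cell number and antibody cannot be told apart.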
